A study of Sus scrofa with 6 samples.

Results

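Fat of the pig was compared with liver and muscle in messenger RNA sequencing libraries of 2 breeds, the Berkshire, a pork breed, and the Korean native pig. The members were the 2 fat libraries, 1 of each breed, among the 6 libraries of the study, and they were set against the 4 liver and muscle libraries with breed as a covariate. Each library came from frozen tissue of 1 breed and 1 tissue. The labels state no genetic alteration, treatment, age or fat depot, nor whether the same animal gave all 3 libraries of a breed. The series title can be read as 3 pigs of each breed, while each breed and tissue has 1 library, so a library may hold RNA of 1 animal or of a pool. A p-value therefore measures only the spread among these libraries. Of 25322 Ensembl gene IDs, 13810 passed a filter on low counts and were tested, and 9103 of these carried a symbol. Levels are library-scaled counts (CPM) with TMM factors, a normalization that sets the bulk of genes equal between libraries. Pairs of values give the Berkshire library first and the Korean native library second. No gene lengths were used, so levels are compared between libraries and not between genes.

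White adipose tissue stores energy as triglyceride in a single large droplet that fills the fat cell. The droplet is coated by perilipins, filled by enzymes that make fatty acids and join them to glycerol, and emptied by a chain of lipases. In pigs fat is the main site at which fatty acids are made from glucose. The nuclear receptor PPARG, with the CEBP factors, switches on this set of genes, and the tissue also holds vessels, nerves, immune cells and fibroblasts in a collagen-rich matrix.

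The libraries held between 5897407 and 7912093 counts on genes, 6335124 and 6676206 of them in the fat libraries. The 10 most abundant genes took 14.8% and 18.1% of the counts in fat and between 23.9% and 33% elsewhere, and the TMM factors of fat were 1.615 and 1.522 against 0.7362 to 0.9145 in the other libraries. Across 13810 genes, Spearman's rho was 0.958 between the fat libraries, 0.758 to 0.835 between a fat and a muscle library and 0.663 to 0.68 between a fat and a liver library (a description across genes, which are not independent). Markers of the other tissues were low in fat. The summed level of 17 skeletal muscle markers was 45.5 and 72 CPM in fat and 156400.0 and 238400.0 in muscle. That of 23 hepatocyte markers matched by symbol was 536 and 270.4 CPM in fat and 266200.0 and 293700.0 in liver. Of the hepatocyte sums in fat ITIH3 alone held 462 and 123 CPM.

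The fat label was checked by 4 genes of lipid storage. PLIN1 (ENSSSCG00000001844), perilipin 1, the droplet coat protein of fat cells, stood at 1096 and 621 CPM in fat against 3.2 and 1.16 in liver and 95.7 and 18.9 in muscle. LIPE (ENSSSCG00000003018), hormone-sensitive lipase, which cuts diglyceride, stood at 1035 and 501 CPM in fat against 1.6 and 1.66 in liver and 79.99 and 19.6 in muscle. PLIN4 (ENSSSCG00000013512), a perilipin that coats new droplets, stood at 1427 and 1852 CPM in fat against 16.2 and 16.7 in liver and 282 and 263 in muscle. FASN (ENSSSCG00000029944), fatty acid synthase, stood at 7148 and 7518 CPM in fat against 226 and 535 in liver and 361 and 60.4 in muscle. For each of the 4 genes both fat libraries lay above the other 4, and muscle lay between fat and liver for PLIN1, LIPE and PLIN4. Fat exceeded the mean of liver and muscle by 6.52 ± 0.41 (SE), 6.43 ± 0.43, 4.60 ± 0.30 and 4.73 ± 0.70 on the log2 scale in the same order, with adjusted p of 0.000911 for the first 3 and 0.00568 for FASN (edgeR quasi-likelihood test, Benjamini-Hochberg adjustment, used for all adjusted p-values). All 10 tested adipocyte markers were higher in fat than that mean, as were 10.8% of all tested genes, with a median of 4.89. Of these markers 7 were higher than in liver and than in muscle (70%, against 2.95% of all tested genes). Of the 20 genes on that list 10 matched an ID by symbol.

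Between fat and the mean of liver and muscle 2841 genes differed at an adjusted p under 0.05, 20.6% of the 13810 tested. Of these, 1497 were higher in fat (10.8%) and 1344 lower (9.73%), and the median log2 difference over all tested genes was -0.07. A mean of 2 tissues can be moved by either one, so each tissue was also tested alone. Fat was higher than liver for 1859 genes (13.5%) and lower for 2100 (15.2%), and it was higher than muscle for 888 (6.43%) and lower for 1374 (9.95%). Genes that passed against liver and against muscle in the same direction numbered 408 higher (2.95%) and 267 lower (1.93%). Both comparisons use the same fat libraries. With a log2 fold of at least 2 against each tissue 215 (1.56%) and 124 (0.898%) remained. Among the 408 higher genes, 403 had both fat libraries above all 4 others, an order that 2116 tested genes (15.3%) showed with no test, and 266 of the 267 lower genes had both fat libraries below, as did 2031 of all (14.7%).

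The 408 genes higher in fat than in both tissues held 10.2% and 9.49% of the counts of the fat libraries, 0.572% and 0.549% in liver and 1.22% and 0.592% in muscle. Their smaller fold, against the nearer tissue, had a median of 2.06 on the log2 scale. The nearer tissue was muscle for 291 genes and liver for 117. The 267 lower genes held 2.04% and 2.7% of the counts in fat against 3.95% and 5.1% in liver and 5.54% and 6.75% in muscle.

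**Figure D1:**
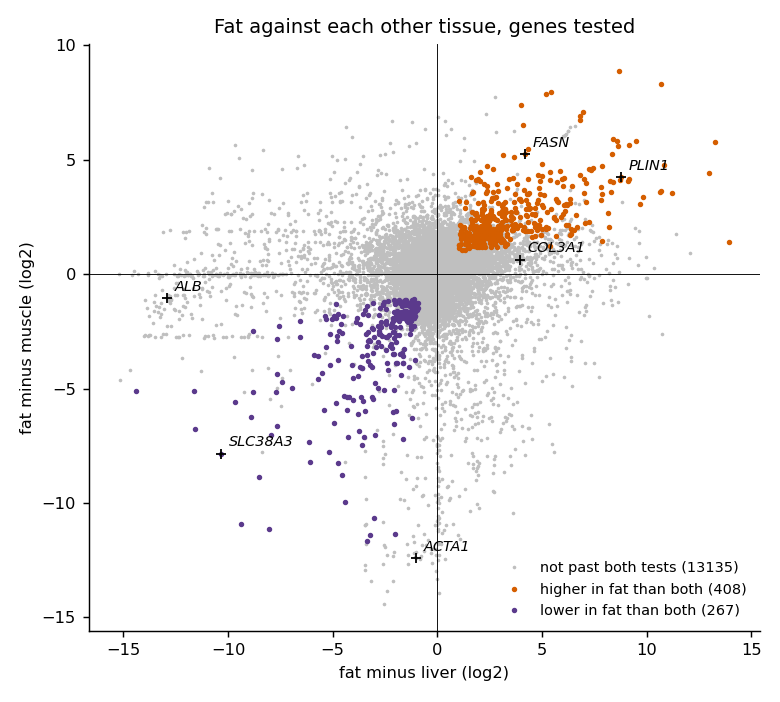
Log2 difference of fat from liver (x axis) and from muscle (y axis) for the 13810 genes tested, each point a gene; the 408 genes higher and the 267 genes lower in fat than in both tissues are coloured and crosses mark named genes. PLIN1 and FASN lie in the upper right, SLC38A3 in the lower left, and ALB and ACTA1, markers of liver and muscle, lie far along 1 axis only; both axes share the fat libraries.

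These counts depend on how tissue enters the model and on the scaling. With liver and muscle joined into a single level, so that their difference counts as spread, edgeR called 0 genes (1428 at an unadjusted p under 0.05), limma-voom 0 (1718) and DESeq2 1777. Scaled by total counts, 7086 genes differed, 6455 higher and 631 lower in fat, and the median gene then stood at 0.89 instead of -0.07 on the log2 scale. Without the Korean native fat library 937 genes differed, 121 were higher than in both tissues and 81 lower, and without the Berkshire fat library 1572 differed, 322 higher and 124 lower. Genes higher than in both tissues numbered 157 without the Korean native muscle library and 583 without the Berkshire one, and genes lower than in both numbered 159 without Korean native muscle and 172 without Berkshire liver.

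Genes that coat, fill and empty the lipid droplet were higher in fat in part. Of 16 tested droplet and lipolysis genes 7 were higher (43.8%, against 10.8% of all tested genes) and 2 lower (12.5%, against 9.73%) than the mean of the other tissues, with a median log2 difference of 1.37. The same 7, PLIN1, PLIN4, CIDEC, PNPLA2, LIPE, MGLL and the adrenergic receptor gene ADRB1, were higher than in liver and in muscle (43.8%, against 2.95%). CIDEC, which fuses droplets into the large droplet of white fat, stood at 858 and 409 CPM in fat against 6.4 and 10.8 in liver and 65.5 and 13.1 in muscle. The lipases that act in sequence with LIPE followed. PNPLA2, adipose triglyceride lipase, which takes the first fatty acid, stood at 561 and 354 CPM in fat against 56.6 and 35.1 in liver and 176 and 115 in muscle. MGLL, monoglyceride lipase, which takes the last, stood at 556 and 436 CPM in fat against 10.4 and 10.3 in liver and 107 and 75.2 in muscle. For these 3 genes both fat libraries were above all others. The log2 difference from the mean of liver and muscle was 5.06 ± 0.55 for CIDEC (adjusted p = 0.00207), 2.49 ± 0.25 for PNPLA2 (adjusted p = 0.00172) and 4.01 ± 0.27 for MGLL (adjusted p = 0.000911). The smallest of these folds was that of PNPLA2, whose muscle level was nearest to fat.

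A pair of droplet genes went the other way. FITM1, a fat storage protein of muscle, stood at 0.686 and 0.493 CPM in fat against 2.4 and 2.65 in liver and 43.2 and 73.3 in muscle, with both fat libraries below all others (log2 -4.30 ± 0.44, adjusted p = 0.00171). CIDEB, the liver member of the CIDE family, stood at 0.49 and 1.08 CPM in fat against 207 and 221 in liver and 0.366 and 0.461 in muscle. For CIDEB both fat values lay above those of muscle and far below those of liver. It was lower than the mean of the other tissues (-3.61 ± 0.56, adjusted p = 0.00645) and than liver, and the difference from muscle did not pass (0.88 ± 0.65, adjusted p = 0.376). Muscle had the highest values of FITM1 and liver those of CIDEB. The levels in fat rested on few counts, 7 and 5 for FITM1 and 5 and 11 for CIDEB. Lower genes of this list numbered 4 without the Korean native liver library.

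Genes on the path from sugar to triglyceride were higher in fat in part. Of 23 fatty acid and triglyceride synthesis genes 13 were higher (56.5%, against 10.8% of all tested genes) and 2 lower (8.7%, against 9.73%) than the mean of the other tissues, with a median log2 of 1.93. Higher than in both tissues were 9 (39.1%, against 2.95% of all), among them ACLY, ACACA, FASN, SLC25A1, ME1, TKT and LPIN1. ACLY, which cleaves citrate to acetyl-CoA in the cytosol, stood at 495 and 976 CPM in fat against 17.2 and 28.8 in liver and 37.7 and 12.9 in muscle. ACACA, acetyl-CoA carboxylase, the committed step of fatty acid synthesis, stood at 625 and 1029 CPM in fat against 241 and 208 in liver and 69 and 27.9 in muscle. Both genes had every fat value above every other value, the gap to liver being narrower for ACACA (1.92 ± 0.51, adjusted p = 0.0296) than for ACLY (4.99 ± 0.70, adjusted p = 0.00236). These 2 differences were not tested against each other.

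Reducing power for this synthesis comes from malic enzyme and the pentose phosphate path. ME1, cytosolic malic enzyme, stood at 542 and 1079 CPM in fat against 16 and 6.63 in liver and 94.4 and 100.1 in muscle. TKT, transketolase, stood at 634 and 629.7 CPM in fat against 156 and 224 in liver and 65.2 and 39.4 in muscle. Both fat libraries were highest for each, with log2 differences from the mean of the other tissues of 4.61 ± 0.46 (adjusted p = 0.00162) and 2.66 ± 0.33 (adjusted p = 0.00305). PC, pyruvate carboxylase, which feeds citrate export and belongs to the list of insulin and glucose genes, stood at 1087 and 935 CPM in fat against 323 and 309 in liver and 127 and 54.4 in muscle (log2 2.61 ± 0.34, adjusted p = 0.00358). AGPAT1, an acyltransferase of triglyceride synthesis, stood at 466 and 401 CPM in fat against 13.8 and 12.1 in liver and 77.4 and 38.8 in muscle (log2 4.01 ± 0.30, adjusted p = 0.000911). No fat value of PC or AGPAT1 overlapped those of another tissue.

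SCD, stearoyl-CoA desaturase, which makes oleic acid, stood at 5332 and 24349 CPM in fat against 546 and 1461 in liver and 926 and 158 in muscle. Both fat libraries were above all others, but they differed from each other by more than the Berkshire fat library differed from the Korean native liver library. SCD was higher than the mean of the other tissues (4.11 ± 0.90, adjusted p = 0.021) and higher than liver, and the difference from muscle did not pass (4.39 ± 1.22, adjusted p = 0.0513). GPAM, which starts glycerolipid synthesis, and FADS2, a fatty acid desaturase, were lower in fat than the mean of the other tissues. GPAM stood at 20.8 and 23.8 CPM in fat against 159 and 323 in liver and 48.7 and 29.1 in muscle, and FADS2 at 20.7 and 14.8, 409 and 83.8 and 32.8 and 22.1. The fat values were the lowest for both, close to muscle and far below liver (log2 -2.12 ± 0.42, adjusted p = 0.0152, and -2.05 ± 0.46, adjusted p = 0.0234). Without the Korean native fat library SCD did not pass (log2 2.59), 2 genes of the list instead of 9 were higher than in both tissues, and without either fat library 0 were lower (GPAM -2.14 and -2.11, FADS2 -2.55 and -1.58 without Korean native and Berkshire fat). The call of FADS2 was also lost without the breed term (-2.21) and those of both lower genes with total counts (-1.17 and -1.06).

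**Figure D2:**
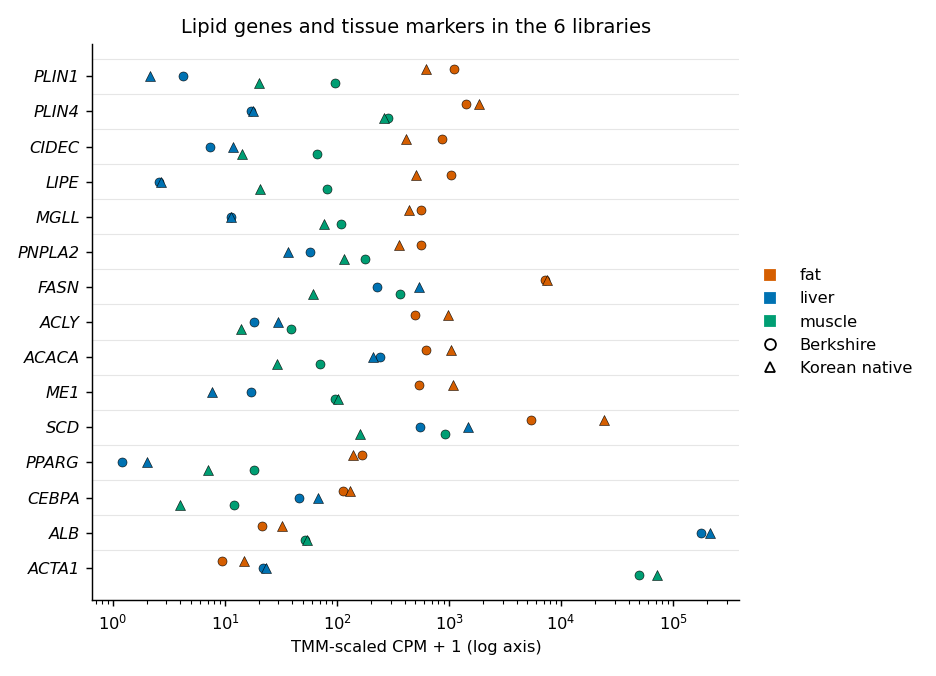
TMM-scaled CPM plus 1 on a log axis for 13 genes of lipid storage and fat cell identity and for ALB and ACTA1, the markers of liver and muscle, with 1 point per library, colour for tissue and shape for breed. Both fat libraries are to the right of all others for these 13 genes, from 354 CPM for PNPLA2 in Korean native fat to 24349 CPM for SCD in the same library among the enzymes and lipases, while ALB is at 20.6 and 31 and ACTA1 at 8.32 and 13.8 CPM in fat.

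Of 12 fatty acid uptake genes 3 were higher (25%, against 10.8% of all tested genes), 1 lower (8.33%, against 9.73%) and 8 did not pass, with a median of 0.24, and the lower one was not called without either fat library. Of 16 insulin and glucose genes 6 were higher (37.5%) and 2 lower (12.5%). The median of the insulin list was 0.17, and it was -0.28 without Berkshire fat and -0.02 without Berkshire liver. HK1, a hexokinase, stood at 161 and 201 CPM in fat against 31.8 and 20.2 in liver and 62.6 and 27.4 in muscle, with fat above both (log2 2.50 ± 0.34, adjusted p = 0.00439). The higher genes of the insulin list numbered 3 without either fat library.

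Transcription factors of fat cells were higher in part. Of 20 tested 8 were higher (40%, against 10.8% of all tested genes) and 12 did not pass (median 0.74), and 2, PPARG and KLF4, were higher than in both tissues (10%, against 2.95%). PPARG, the receptor that drives fat cell formation, stood at 164 and 138 CPM in fat against 0.2 and 0.994 in liver and 17 and 6 in muscle. CEBPA, its partner in fat cells and also a liver factor, stood at 113 and 129 CPM in fat against 44.4 and 66 in liver and 11 and 3 in muscle. STAT5A, a signal transducer that promotes fat cell formation, stood at 119 and 171 CPM in fat against 17.4 and 15.2 in liver and 92.8 and 103 in muscle. Fat was the highest tissue for each of the 3, with liver nearest for CEBPA and muscle nearest for STAT5A. Against the mean of the other tissues the log2 difference was 5.81 ± 0.48 for PPARG (adjusted p = 0.000974), 2.62 ± 0.43 for CEBPA (adjusted p = 0.00827) and 1.85 ± 0.26 for STAT5A (adjusted p = 0.00479). CEBPA did not pass against liver (1.12 ± 0.51, adjusted p = 0.15) nor STAT5A against muscle (0.56 ± 0.31, adjusted p = 0.247).

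KLF4, an early factor of fat cell formation that also responds quickly to stimuli, stood at 102 and 153 CPM in fat against 7 and 4.31 in liver and 55.1 and 30.9 in muscle, and fat was above both (log2 3.09 ± 0.35, adjusted p = 0.0024). EBF2, a factor of fat cell precursors, stood at 12.5 and 24.3 CPM in fat and 11.5 and 9 in muscle, with 0 counts in both liver libraries. Taking 3 counts per library as the floor, its mean in fat was at least 33.5-fold higher than its mean in liver. EBF2 did not pass against muscle (0.77 ± 0.44, adjusted p = 0.272). Without the Korean native fat library CEBPA (log2 2.31) and STAT5A (1.57) were no longer called, and 1 factor instead of 2 was higher than in both tissues. The latter count was 5 without the Berkshire muscle library.

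Of 9 tested genes of heat-producing fat 2 were higher than the mean of the other tissues, EBF2 and UCP3, and 1 was lower, PPARGC1A (22.2% and 11.1%, against 10.8% and 9.73% of all tested genes). UCP3, an uncoupling protein of muscle mitochondria, stood at 63.3 and 95.4 CPM in fat against 0.2 and 0.166 in liver and 111 and 48.2 in muscle. Its fat and muscle values overlapped, and the difference was from liver (0.08 ± 0.45 against muscle, adjusted p = 0.917). Higher genes numbered 4 without the Berkshire muscle library, and lower ones 2 without Korean native liver. PPARGC1A, the coactivator that drives the making of mitochondria, stood at 56.6 and 49 CPM in liver and 30.02 and 26.1 in muscle and had 2 counts in each fat library (0.196 and 0.197 CPM). From the pooled counts liver exceeded fat 267-fold (exact 95% interval 104 to 983) and muscle exceeded fat 144-fold (55.5 to 532), intervals that cover counting error only. The difference passed against both tissues (adjusted p = 9.07e-05 and 0.000235).

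Other genes were chosen for the largest folds over the nearer tissue. TRARG1, which aids the traffic of the insulin-regulated glucose transporter, stood at 131 and 164 CPM in fat and 9.88 and 4.38 in muscle, with 0 counts in liver, and was at least 269-fold higher in fat than in liver. ADIG, adipogenin, a small protein of fat cells, stood at 50.3 and 16.5 CPM in fat and 2.38 and 0.231 in muscle, with 0 counts in liver, and was at least 60.9-fold higher in fat than in liver. CYP4B1, a cytochrome P450, stood at 173 and 144 CPM in fat and 7.32 and 0.231 in muscle, with 0 counts in liver, and was at least 288-fold higher in fat than in liver. Their folds over liver compare tissue means at the same floor of 3 counts, so a single pair of libraries can give less. Fat was far above both tissues for these 3 genes, and Berkshire muscle was above Korean native muscle for each. Against muscle the log2 difference was 4.41 ± 0.49 for TRARG1 (adjusted p = 0.00323), 4.77 ± 0.51 for ADIG (adjusted p = 0.00287) and 5.76 ± 0.87 for CYP4B1 (adjusted p = 0.0101). LGALS12, a galectin of fat cell droplets, stood at 41.2 and 30.4 CPM in fat against 0 and 0.166 in liver and 1.65 and 0.231 in muscle. The difference from the mean of the other tissues passed (adjusted p = 0.000911), and no fold is given for LGALS12, RDH5, SDR16C5 and BMAL2 because liver held 0 or 1 count in each library.

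Of 3 enzymes of vitamin A metabolism, RDH5 and SDR16C5 were among them, and RETSAT was named for its abundance in fat. RDH5, a retinol dehydrogenase, stood at 32.9 and 40.2 CPM in fat against 0 and 0.166 in liver and 1.1 and 0 in muscle. SDR16C5, another retinol dehydrogenase, stood at 94.3 and 134 CPM in fat against 0.2 and 0.166 in liver and 3.66 and 0.923 in muscle. RETSAT, retinol saturase, which fat cells need for their maturation, stood at 887 and 780.0 CPM in fat against 70.6 and 80.4 in liver and 83.1 and 21 in muscle. Fat was highest in both breeds for the 3 enzymes, with adjusted p of 0.00127, 0.000911 and 0.00283 against the mean of the other tissues, and RETSAT exceeded it by 3.80 ± 0.45 on the log2 scale. The wider list of retinoid and steroid genes had 6 higher (31.6%, against 10.8% of all tested genes), 3 lower (15.8%, against 9.73%) and 10 not passing among 19. Its median was -0.24, and it was positive with total counts (0.72), without a filter (1.03) and without any one library (0.42 to 1.10). These medians do not all cover the same genes, since 24 members were tested without a filter and 21 without any library other than Berkshire fat. Higher than in both tissues were 21.1%, against 2.95% of all tested genes. Of this list 4 genes were higher than in both tissues, 2 without either Korean native fat or Korean native muscle. Its higher genes numbered 2 without Korean native fat, and its lower genes 0 without Berkshire fat and 6 without Korean native muscle.

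Other genes of large fold were on none of the gene lists. PPP1R1B, a phosphatase inhibitor best known from neurons, stood at 186 and 138 CPM in fat against 0.6 and 1.99 in liver and 12.8 and 3.92 in muscle (log2 5.58 ± 0.49, adjusted p = 0.0012). BMAL2, a paralog of the circadian factor BMAL1, stood at 10.5 and 21.5 CPM in fat against 0 and 0.166 in liver and 0.549 and 0.692 in muscle (adjusted p = 0.000911). All fat values of both genes were above those of the other tissues. CLSTN3, a calsyntenin, stood at 57.9 and 40.3 CPM in fat against 0.8 and 0.663 in liver and 4.39 and 1.15 in muscle (log2 5.13 ± 0.37, adjusted p = 0.000911). ALDOC, an aldolase of glycolysis best known from brain, stood at 820.0 and 774 CPM in fat against 1.2 and 3.31 in liver and 80.9 and 24.4 in muscle (log2 6.19 ± 0.56, adjusted p = 0.00125). The aldolase paralogs share sequence, so some reads may be assigned to the wrong copy.

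SAL1, salivary lipocalin, a carrier of pheromones, rested on 1 library. It stood at 1.66 and 1178 CPM in fat against 0.2 and 0.331 in liver and 0.183 and 2.54 in muscle. The Berkshire fat value lay below that of Korean native muscle, so the groups overlapped although the gene was called (9.51 ± 1.06, adjusted p = 0.00229). Without the Korean native fat library the log2 difference was 3.33 and did not pass. Fat libraries over 4-fold apart were found for 14 of the 408 genes higher than in both tissues (3.43%) and for 128 of all tested genes (0.927%).

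Secreted regulators came next. Of 21 Wnt genes 8 were higher (38.1%, against 10.8% of all tested genes), 1 lower (4.76%, against 9.73%) and 12 did not pass (median 0.90). Higher than in both tissues were 4, SFRP5, SFRP1, DKK3 and FZD4 (19%, against 2.95%). SFRP5, a secreted Wnt antagonist and adipokine, stood at 224 and 176 CPM in fat against 7 and 6.96 in liver and 14.5 and 6 in muscle. SFRP1, another secreted antagonist, stood at 185 and 296 CPM in fat against 52.2 and 29.5 in liver and 56.6 and 7.61 in muscle. FZD4, a Wnt receptor, stood at 625 and 431 CPM in fat against 103 and 46.4 in liver and 234 and 95 in muscle. Fat values were the highest for each, and the liver and muscle values lay close together for SFRP5. Log2 differences from the mean of the other tissues were 4.58 ± 0.32 for SFRP5 (adjusted p = 0.000911), 3.07 ± 0.63 for SFRP1 (adjusted p = 0.0168) and 2.37 ± 0.29 for FZD4 (adjusted p = 0.00305). Without Korean native fat SFRP1 was not called (1.69), 5 Wnt genes were higher than the mean and 2 higher than in both tissues. The last count was 1 without Korean native muscle. Lower Wnt genes numbered 0 without Berkshire fat or Berkshire muscle and 2 without Korean native muscle.

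Of 34 TGF-beta and BMP genes 10 were higher (29.4%, against 10.8% of all tested genes), 2 lower (5.88%, against 9.73%) and 22 did not pass (median 0.51). CHRDL1, a secreted BMP antagonist, stood at 389.7 and 430.2 CPM in fat against 13.8 and 9.78 in liver and 152 and 63.4 in muscle, with fat above both tissues (log2 3.61 ± 0.35, adjusted p = 0.00145). The higher genes numbered 3 without Korean native fat, and the lower ones 1 without either fat library, Berkshire liver or Korean native muscle. Of 18 adipokines and secreted factors 7 were higher (38.9%), 2 lower (11.1%) and 9 did not pass (median 1.26), and the higher ones numbered 2 without Korean native fat. CFD, adipsin, the complement factor D made by fat cells, stood at 116 and 197 CPM in fat against 27.4 and 21 in liver and 120.2 and 138 in muscle. AGT, angiotensinogen, stood at 657 and 399 CPM in fat against 769 and 306 in liver and 185 and 50.5 in muscle. Fat overlapped muscle for CFD and liver for AGT. CFD was higher than the mean of the other tissues (1.45 ± 0.30, adjusted p = 0.0174) but not than muscle (0.26 ± 0.36, adjusted p = 0.642). AGT passed (1.25 ± 0.33, adjusted p = 0.0367), but lost its call when any library other than Berkshire muscle was left out (log2 0.79 to 1.67) and without the breed term (1.07). CFD was not called without Korean native fat (1.01). Both lower secreted factors, NAMPT and VEGFA, lost their calls without either fat library, and 1 was called without Berkshire liver or Berkshire muscle.

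Matrix genes separated fat from liver more than from muscle. Of 29 collagen and fibrillar matrix genes 24 were higher in fat than in liver (82.8%, against 13.5% of all tested genes) and 6 higher than in muscle (20.7%, against 6.43%), while 24 were higher than the mean of both (82.8%, against 10.8%; median 2.30, against -0.07 for all genes). COL3A1, the chain of type III collagen, stood at 9065 and 12757 CPM in fat against 819 and 673 in liver and 14585 and 2772 in muscle. COL1A2, a chain of type I collagen, stood at 2413 and 3045 CPM in fat against 123 and 128 in liver and 4010.3 and 717 in muscle. COL6A3, a chain of type VI collagen, which surrounds fat cells, stood at 1505 and 2373 CPM in fat against 104 and 95.8 in liver and 1563 and 822 in muscle. For all 3 the Berkshire muscle library exceeded the Berkshire fat library, and liver was lowest. Log2 differences from the mean were 2.30 ± 0.59 (adjusted p = 0.0345), 2.48 ± 0.58 (adjusted p = 0.0263) and 2.52 ± 0.39 (adjusted p = 0.0064), and against muscle 0 of the 3 passed (adjusted p = 0.569, 0.67 and 0.306).

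THBS1, thrombospondin 1, a matricellular protein, stood at 1568 and 305 CPM in fat against 135 and 48.6 in liver and 203 and 53.5 in muscle. ADAMTS4, a protease that cleaves proteoglycans, stood at 74 and 14.2 CPM in fat against 1.8 and 0.331 in liver and 3.66 and 0.461 in muscle. Within every tissue the Berkshire library was higher for both genes, and fat exceeded both other tissues (log2 2.92 ± 0.30, adjusted p = 0.00183, and 4.92 ± 0.31, adjusted p = 0.000911). BCAM, a receptor of the laminin in basement membranes, stood at 1647 and 1432 CPM in fat against 12.2 and 10.1 in liver and 211 and 139 in muscle (log2 5.14 ± 0.30, adjusted p = 0.000911). LAMC1, a laminin chain, stood at 654 and 618 CPM in fat against 55.6 and 57.2 in liver and 662 and 356 in muscle, where fat and muscle overlapped (log2 1.93 ± 0.31, adjusted p = 0.00752). Of 21 basement membrane genes 13 were higher (61.9%, against 10.8% of all tested genes) and 8 did not pass (median 1.61), and of 27 proteoglycans and matrix enzymes 16 were higher (59.3%) and 11 did not pass (median 1.78, or 1.60 with 1 gene at its bound).

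Without Korean native fat the higher genes numbered 12 of 29 in the collagen list, 5 of 21 in the basement membrane list and 5 of 27 in the third, and COL3A1 (log2 1.30), COL1A2 (1.64), COL6A3 (1.89) and LAMC1 (1.75) were not called. COL3A1 also lost its call without the breed term (2.10). Collagen genes higher than in both tissues numbered 5 (17.2%, against 2.95% of all tested genes). That count was 3 without Korean native fat, Korean native muscle or the breed term, 8 with DESeq2 and 14 without Berkshire muscle. Markers of cartilage and tendon moved with breed in the same libraries: 10 of 12 were higher in Berkshire than in Korean native fat and 12 of 12 in Berkshire than in Korean native muscle (median log2 1.27 and 1.44). Over all 13810 tested genes these numbers were 6565 and 6970 (median log2 -0.006 and 0.01). The summed level of the 19 genes of that list matched by symbol, tested or not, was 679 and 166 CPM in fat. It was 83 and 68.4 in liver and 759.6 and 468 in muscle. The part of these markers in the matrix result was not tested.

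The surface of the fat cell is dense in caveolae, small pits of the plasma membrane. Of 7 caveolar genes 4 were higher (57.1%, against 10.8% of all tested genes), 1 lower (14.3%, against 9.73%) and 2 did not pass (median 1.72). CAV1, the main caveolar coat protein, stood at 633 and 647 CPM in fat against 30.01 and 32.3 in liver and 492 and 184 in muscle. EHD2, an ATPase at the neck of the pit, stood at 706 and 609 CPM in fat against 26.8 and 16.6 in liver and 280.2 and 144 in muscle. CAVIN3, a coat adaptor, stood at 79.5 and 106 CPM in fat against 4.8 and 4.31 in liver and 24.2 and 14.8 in muscle. Fat was highest for each. EHD2, CAVIN3 and CAVIN2 were higher than in both tissues (42.9% of the list, against 2.95% of all tested genes). CAV1 did not pass against muscle (1.02 ± 0.46, adjusted p = 0.169). Against the mean of the other tissues the log2 difference was 2.69 ± 0.38 for CAV1 (adjusted p = 0.00477), 3.34 ± 0.29 for EHD2 (adjusted p = 0.0012) and 3.31 ± 0.30 for CAVIN3 (adjusted p = 0.00127). PACSIN3, a membrane-bending protein of muscle, was lower, with 2.74 and 2.56 CPM in fat against 4 and 8.95 in liver and 25.1 and 126 in muscle (log2 -2.77 ± 0.55, adjusted p = 0.0158). Without Korean native fat CAVIN2 (1.50) and PACSIN3 (-1.82) were not called and 0 caveolar genes were higher than in both tissues. Omitting Korean native muscle gave 1, and omitting Berkshire muscle 6.

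Of 31 genes of the actin cytoskeleton and adhesion, annexins and their partners among them, 12 were higher (38.7%, against 10.8% of all tested genes), 1 lower (3.23%, against 9.73%) and 18 did not pass (median 0.91). ANXA2, a calcium-dependent membrane binder, stood at 1159 and 1936 CPM in fat against 103 and 129 in liver and 328 and 148 in muscle. S100A10, its binding partner, stood at 389 and 605 CPM in fat against 51.4 and 99.9 in liver and 102 and 74.7 in muscle. ANXA1, an annexin that resolves inflammation, stood at 388 and 604 CPM in fat against 25.8 and 26 in liver and 119.7 and 54.7 in muscle. Each had both fat libraries above the other 4, and the Korean native fat library was the higher of the pair. Log2 differences were 3.22 ± 0.43 (adjusted p = 0.0039), 2.58 ± 0.34 (adjusted p = 0.00402) and 3.41 ± 0.39 (adjusted p = 0.00241). Higher than in both tissues were 22.6% of the list, against 2.95% of all tested genes. Of the 31 genes 7 were higher than in both tissues, 0 without Korean native fat and 1 without Korean native muscle. Those higher than the mean numbered 6 without Korean native fat and 19 without Berkshire muscle. The 1 lower gene, RDX, was not called without either fat library, either liver library or Berkshire muscle.

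Markers of other cells of the tissue were examined next, and in bulk tissue fewer cells of a type and less RNA per cell cannot be told apart. Of 16 fibroblast and progenitor markers 8 were higher (50%, against 10.8% of all tested genes) and 1, DPP4, lower (6.25%, against 9.73%), with a median of 1.47. Against muscle alone 18.8% of them were higher, as were 6.43% of all tested genes. For DCN, LUM, PI16 and ENG the fat libraries were neither above nor below all 4 others. VIM, vimentin, the filament protein of mesenchymal cells, stood at 2438 and 2501 CPM in fat against 129 and 118 in liver and 1030.5 and 407 in muscle, with fat above both (log2 3.11 ± 0.38, adjusted p = 0.00301). Of 18 endothelial markers 8 were higher (44.4%) and 2, FLT4 and PROX1, lower (11.1%), with a median of 0.90. Higher than in muscle alone were 16.7% of them. PECAM1, a junction protein of endothelium, stood at 736 and 506 CPM in fat against 113 and 113 in liver and 336 and 272 in muscle. ROBO4, a receptor of vessel endothelium, stood at 128 and 66 CPM in fat against 16.2 and 10.3 in liver and 41.5 and 24.9 in muscle. Fat was highest for both vessel genes (log2 1.72 ± 0.28, adjusted p = 0.00745, and 2.17 ± 0.24, adjusted p = 0.00215). ROBO4 was higher than in both tissues, whereas PECAM1 did not pass against muscle (1.02 ± 0.34, adjusted p = 0.0801). The endothelial count was 3 and 2 without Berkshire and Korean native fat and 5 without either liver library, and PECAM1 was not called without either fat library (1.52 and 1.91). The fibroblast count was 4 without Korean native fat, and the lower endothelial genes numbered 1 without either fat library, Berkshire liver or Korean native muscle.

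Immune markers were compared in the same way. Of 18 macrophage markers 1, the integrin gene ITGAM, was higher than the mean of the other tissues (5.56%, against 10.8% of all tested genes), with 5 lower than in liver (27.8%, against 15.2%) and 6 higher than in muscle (33.3%, against 6.43%). The share called against the mean was near that of all genes. ITGAM lost its call when any library other than Berkshire muscle was left out (log2 0.86 to 1.48). The median of the list was 0.20, and it was -0.67 without Korean native fat and -0.20 without Korean native muscle. With total counts 8 of the 18 were higher, as were 46.7% of all tested genes. Of 13 lymphocyte markers edgeR called 0 against the mean (1 lower at an unadjusted p under 0.05), DESeq2 called 1 lower and limma-voom 0, while 7 were lower than in liver (53.8%, against 15.2% of all tested genes). Their median was -0.34, and it was 0.62 with total counts and 0.23 without Berkshire muscle. Macrophage markers called higher than the mean numbered 2 without Berkshire fat, 5 without Berkshire muscle and 0 without Korean native fat, liver or muscle. Between breeds 0 of 18 macrophage markers were higher in Berkshire than in Korean native fat (median log2 -0.74) and 18 of 18 were higher in Berkshire than in Korean native muscle (1.13). Of all 13810 tested genes 6565 were higher in Berkshire fat (median -0.006) and 6970 in Berkshire muscle (0.01). Of 11 Schwann cell and nerve markers 7 were higher (63.6%) and 4 did not pass (median 1.66, or 1.65 with 1 gene at its bound), and without Korean native fat 0 were called higher. Of the 11, 0 were higher in Berkshire than in Korean native fat (median log2 -1.21). Against liver alone 7 nerve markers were higher (63.6%, against 13.5% of all tested genes) and 3 lower (27.3%, against 15.2%). Against muscle alone 3 were higher (27.3%, against 6.43%). The summed level of the 14 genes matched by symbol was 98.1 and 224 CPM in fat. It was 261 and 302 in liver and 104 and 87 in muscle.

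Genes that keep a record of body position differed as well. A list of 18 tested HOX and other patterning genes had 10 higher (55.6%, against 10.8% of all tested genes) and 8 that did not pass (median 3.53, or 2.29 with the 6 genes at 0 in a tissue set to their bound). HOXA5, expressed in the front part of the trunk, stood at 128 and 57.3 CPM in fat against 4.6 and 1.49 in liver and 2.01 and 21 in muscle. HOXD4 stood at 14.9 and 14 CPM in fat against 0.2 and 0.331 in liver and 3.48 and 6 in muscle. HOXB7 stood at 7.54 and 10.2 CPM in fat against 0.6 and 0.829 in liver and 0.183 and 2.08 in muscle. For these 3 fat was above the other libraries, while the muscle libraries lay apart from each other. Higher than in both tissues were 4 genes of the list (22.2%, against 2.95% of all tested genes), HOXD4 and HOXB7 among them. HOXA5 did not pass against muscle (3.04 ± 1.06, adjusted p = 0.092). HOXC6, with 12.6 and 14.2 CPM in fat, 0 counts in liver and 0.915 and 52.4 in muscle, did not pass against the mean (adjusted p = 0.0862), though it did with total counts, without a filter and when any library other than Korean native liver was left out. HOXA5 exceeded the mean of the other tissues by 3.99 ± 0.82 (adjusted p = 0.017), HOXD4 by 3.66 ± 0.39 (adjusted p = 0.00195) and HOXB7 by 3.42 ± 0.54 (adjusted p = 0.00682). HOXA5 was not called without Berkshire fat (2.83), where 2 instead of 4 genes of the list were higher than in both tissues. The muscle sampled is not named in the labels, so body position and tissue cannot be told apart.

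Immediate early genes, which respond within minutes to handling or stimuli, were higher in fat in 8 of 17 cases (47.1%, against 10.8% of all tested genes), and 9 did not pass (median 1.23). FOS, a subunit of the AP-1 factor, stood at 827 and 172 CPM in fat against 67 and 70.4 in liver and 79.3 and 112 in muscle. Both fat libraries were above the others, the Korean native one by less. FOS did not pass against muscle (2.16 ± 0.70, adjusted p = 0.0765). Against the mean of the other tissues its log2 difference was 2.41 ± 0.57 (adjusted p = 0.0273). Without Berkshire fat FOS had a difference of 0.94 and was not called, and 1 gene of the list was called. The count was 4 without Korean native fat and 4 without the breed term, and FOS also lost its call without Berkshire muscle (1.98). Within fat 12 of the 17 genes were higher in the Berkshire library (median log2 1.12), as were 6565 of all 13810 tested genes (median -0.006).

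**Figure D3:**
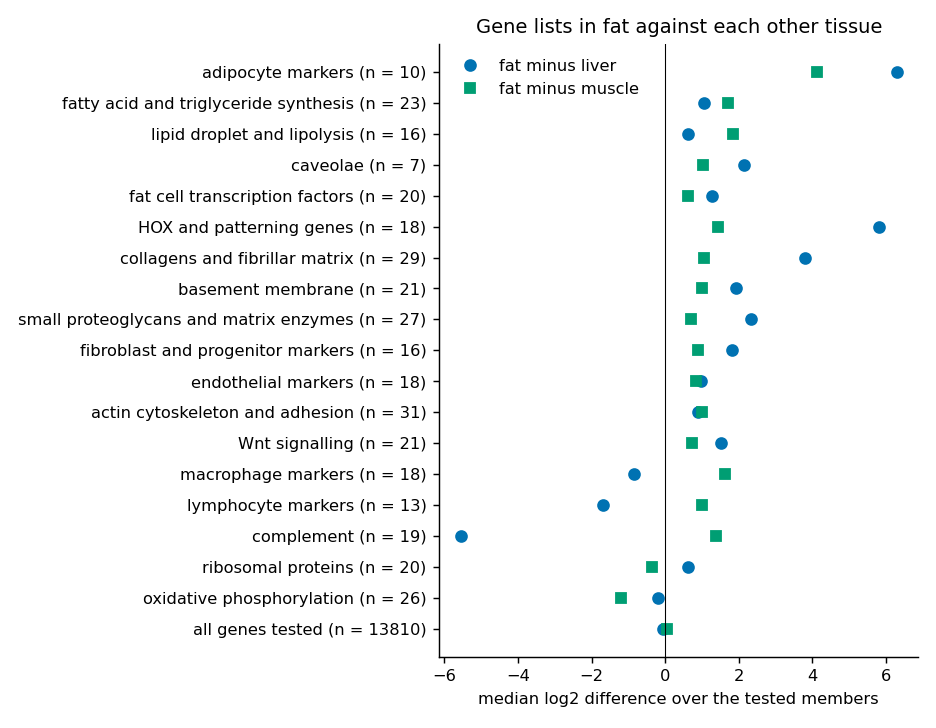
Median log2 difference of fat from liver (circles) and from muscle (squares) over the tested members of 18 gene lists and over all 13810 genes tested. Adipocyte markers lie furthest right against muscle, matrix lists lie further from liver than from muscle, and macrophage, lymphocyte and complement genes lie left of 0 against liver and right of 0 against muscle.

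Genes lower in fat than in both tissues included carriers of amino acids and iron. SLC38A3, a glutamine transporter, stood at 0.392 and 1.08 CPM in fat against 710.2 and 1224 in liver and 206 and 126 in muscle. SLC38A4, another neutral amino acid transporter, stood at 0.783 and 0.789 CPM in fat against 2502 and 2236 in liver and 184 and 31.4 in muscle. TFRC, the transferrin receptor, which takes up iron, stood at 14.1 and 38.4 CPM in fat against 88.6 and 554 in liver and 219 and 461 in muscle. Fat was lowest in each breed for all 3, and for TFRC the Korean native library was the higher in every tissue. The log2 differences were -9.08 ± 0.70 for SLC38A3 (adjusted p = 0.000911), -9.18 ± 0.87 for SLC38A4 (adjusted p = 0.00145) and -3.56 ± 0.46 for TFRC (adjusted p = 0.00358). The levels of both amino acid transporters in fat rested on few counts.

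Mitochondrial enzymes followed. ACADM, the dehydrogenase that burns medium-chain fatty acids, stood at 101 and 99.9 CPM in fat against 1076 and 2027 in liver and 399.8 and 471 in muscle. ALDH2, mitochondrial aldehyde dehydrogenase, stood at 30.8 and 47.9 CPM in fat against 829 and 964 in liver and 172 and 304 in muscle. MAOB, monoamine oxidase B, stood at 1.57 and 2.86 CPM in fat against 616 and 1411 in liver and 6.04 and 21.9 in muscle. Fat was below both tissues for each, and for MAOB liver stood far above muscle. Log2 differences were -2.99 ± 0.39 for ACADM (adjusted p = 0.00368), -3.56 ± 0.36 for ALDH2 (adjusted p = 0.00162) and -5.64 ± 0.44 for MAOB (adjusted p = 0.000911). NDRG2, a gene that responds to stress and hormones, stood at 86.3 and 109 CPM in fat against 827 and 854 in liver and 259 and 848 in muscle (log2 -2.74 ± 0.47, adjusted p = 0.00907), and was not called without Korean native fat (-2.48).

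Respiratory chain genes were lower in 6 of 26 cases (23.1%, against 9.73% of all tested genes) and did not pass in 20, with a median of -0.53. The 3 lower than in both tissues (11.5%, against 1.93% of all tested genes) were SDHB, NDUFS1 and UQCRC2, subunits of complexes II, I and III. These genes are named here because they are the 3 and so were chosen after their values were seen. SDHB stood at 79.3 and 75.7 CPM in fat against 164 and 191 in liver and 139.8 and 245 in muscle. NDUFS1 stood at 63.4 and 71.3 CPM in fat against 138 and 158 in liver and 180.5 and 339 in muscle. UQCRC2 stood at 52.2 and 67.1 CPM in fat against 96.8 and 159 in liver and 138 and 251 in muscle. Fat was lowest for all 3 and Korean native muscle highest. Their log2 differences were -1.22 ± 0.31 (adjusted p = 0.0345), -1.51 ± 0.31 (adjusted p = 0.0173) and -1.36 ± 0.28 (adjusted p = 0.0178). ATP5F1A, a subunit of ATP synthase, did not pass, with 364 and 381 CPM in fat against 403 and 479 in liver and 556 and 1055 in muscle.

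Calls in the respiratory chain depended on single libraries and on the scaling. All 6 calls were lost without either fat library and with total counts, 2 were left without Berkshire liver, and 10 genes were called without Berkshire muscle. Of the 3 genes lower than in both, 0 were left without either liver library or the breed term, and 1 with RLE factors or without Korean native muscle. Without Berkshire and Korean native fat the log2 values were -1.53 and -0.94 for SDHB, -1.71 and -1.33 for NDUFS1 and -1.58 and -1.15 for UQCRC2, and with total counts -0.25, -0.53 and -0.39. SDHB was also lost without Berkshire liver (-1.18). The list median turned to 0.45 with total counts, where that of all genes was 0.89. Scaling moves all genes by nearly the same amount, so the place of the list below the median gene was bound to stay. It is not a second test of the list.

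**Figure D4:**
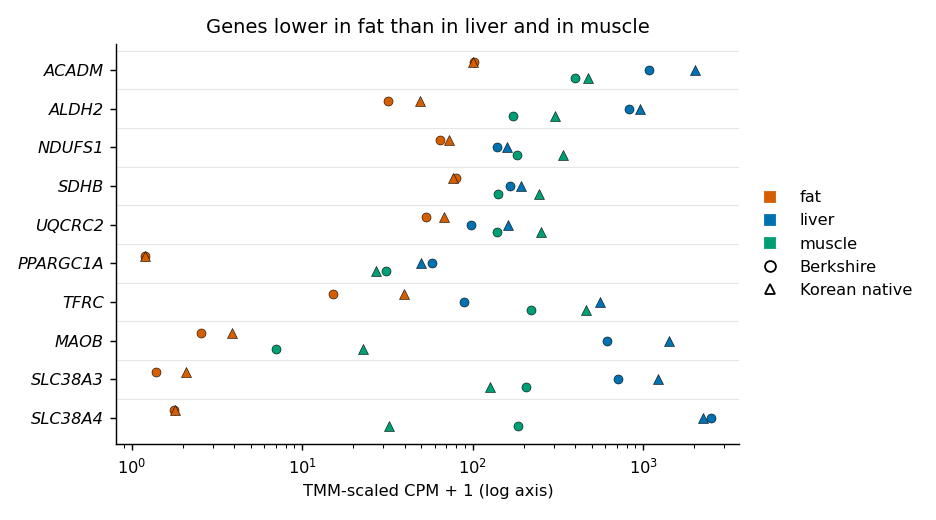
TMM-scaled CPM plus 1 on a log axis for 10 genes lower in fat than in liver and in muscle, with 1 point per library, colour for tissue and shape for breed. Fat lies left of both tissues for all 10, by the widest margin for SLC38A3, SLC38A4 and PPARGC1A and by the narrowest for UQCRC2.

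Markers of hepatocytes were low in fat. Of 22 hepatocyte markers 19 were lower than the mean of the other tissues (86.4%, against 9.73% of all tested genes) and all 22 lower than in liver (15.2% of all). ITIH4, a plasma protease inhibitor heavy chain, stood at 14.2 and 13.9 CPM in fat against 3417 and 2404 in liver and 114 and 86.5 in muscle, below both (log2 -5.24 ± 0.42, adjusted p = 0.000911). ITIH3, of the same family, stood at 462 and 123 CPM in fat against 1492 and 1388 in liver and 21 and 5.77 in muscle. Unlike ITIH4 it was higher in fat than in muscle (4.42 ± 0.59, adjusted p = 0.00392) and lower than in liver (-2.67 ± 0.55, adjusted p = 0.0111), and did not pass against the mean (0.87 ± 0.43, adjusted p = 0.198). Against the mean it passed with total counts (1.82) and without Korean native liver (1.37). Of 19 complement genes 7 were lower (36.8%, against 9.73%) and 1, CFD, was higher (5.26%, against 10.8%), with a median of -5.55 against liver and 1.38 against muscle, and 13 were lower without Korean native fat and 11 with DESeq2. Higher ones numbered 2 without Berkshire fat and 0 without Korean native fat. Of 20 ribosomal protein genes 1 was higher (5%) and 19 did not pass, and that 1 was not called without either fat or either liver library. Their median was 0.14, and it was -0.31 without Berkshire fat and -0.01 without Berkshire muscle.

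The muscle libraries of the breeds differed from each other in genes of fat and matrix. The summed level of the 10 adipocyte markers was 12100.0 and 11530.0 CPM in fat against 329 and 658 in liver and 1044 and 527 in muscle. Of these markers 9 of 10 were higher in Berkshire than in Korean native muscle (median log2 1.47), as were 27 of 29 collagen and matrix genes (1.40) and 320 of the 408 genes higher in fat than in both tissues (78.4%, median 0.53). Over all tested genes the share was 50.5% (6970 genes, median 0.01). Skeletal muscle markers went the other way, with 3 of 17 higher in Berkshire muscle (median -0.74), and 0 of 26 respiratory chain genes were higher there (-0.90). Between the fat libraries 5 of 10 adipocyte markers were higher in Berkshire (median 0.09), as were 6565 of all 13810 tested genes (median -0.006). With 1 library per breed and tissue there is no test of these differences, and their part in the comparison of fat with muscle was not tested. Without the Berkshire muscle library 8 adipocyte markers instead of 7 were higher in fat than in both tissues.

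**Figure D5:**
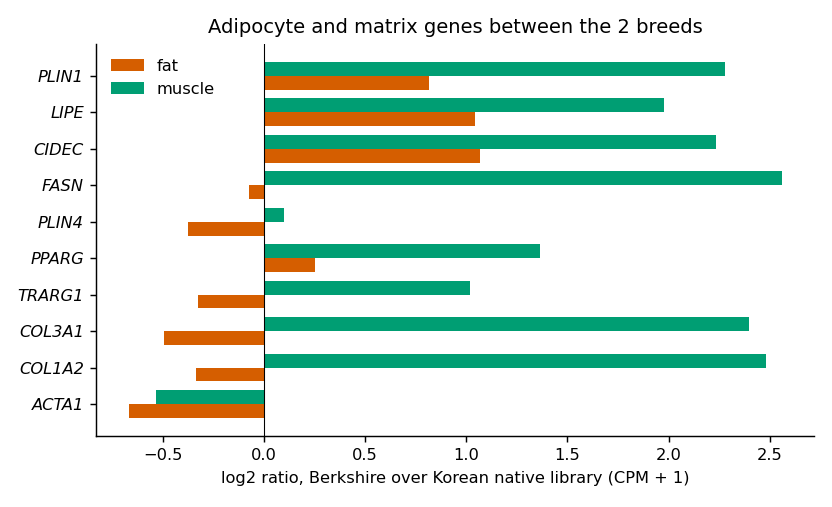
Log2 ratio of the Berkshire over the Korean native library, from CPM plus 1, for 7 adipocyte genes, 2 collagen genes and the muscle actin gene ACTA1, in fat and in muscle; each bar is 1 library against 1. In muscle every gene but ACTA1 is higher in the Berkshire library, by the least for PLIN4 (282 and 263 CPM), while the fat bars point both ways.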

How the data were processed

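Messenger RNA of 6 pig libraries was sequenced from TruSeq libraries made of 1 ug of total RNA, per the labels' protocols. The submitters' processing notes name TopHat, HTSeq (0.5.3p3) and the pig build Sscrofa10.2. The authors deposited unnormalized counts of reads for each Ensembl gene ID. The sources used here give neither annotation release nor strand setting. Overlapping and antisense genes therefore cannot be told apart, and reads of near-identical copies may be split.

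The 5 closing rows that name no gene were left out: reads outside genes made up 45.9% to 52.5% of a library's entries and reads without a unique alignment 14.1% to 20.8%. Symbols matched 11804 of 25322 IDs through the supplied name table. A model of 3 tissues and breed over all 6 libraries was fitted in edgeR 4.0.16 (R 4.3.3) with TMM factors, filterByExpr and the two-sided quasi-likelihood test, at a Benjamini-Hochberg adjusted p under 0.05. It had 2 residual degrees of freedom and a biological coefficient of variation of 29.5%. SE values were computed from the test, as the absolute log2 difference divided by the root of its F statistic. A count of 0 allows 0.294 to 0.692 CPM in a library, the value of 3 counts, for counting error only. The breed term pairs the libraries by the breed in the labels. Alternatives used DESeq2 1.42.0 and limma-voom (limma 3.58.1).

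Members and gene lists were chosen with earlier results of these data known, so lists are described by counts and medians, with the share of all tested genes beside the counts, and were not tested. Genes named are markers of the labels, the most abundant and the most different among genes past both tests, and, for every list, at most 6 members abundant in fat with at most 4 that went against its direction. ADRB1, SLC25A1, LPIN1, DKK3 and ITGAM were named after their values were seen. Some genes that this rule or a list names are not reported here.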

Additional observations from a re-analysis of the deposited data

Results flagged for a closer look

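FN1, fibronectin, is the gene among those named here whose difference between fat and the mean of liver and muscle had opposite signs in the breeds. On the log2(CPM + 1) scale it was -1.94 in the Berkshire libraries and 0.012 in the Korean native libraries, the latter close to 0. This difference between breeds was not tested. The fat libraries held 1121 and 2650.4 CPM of FN1, the liver libraries 10353 and 9845 and the muscle libraries 1798 and 701, and its difference from the mean did not pass (log2 -0.89 ± 0.57, adjusted p = 0.31, edgeR quasi-likelihood test), the sign being positive with total counts (0.07). Among the 2841 called genes 1 had opposite signs in the breeds.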

How the results depend on the processing

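The fit with 3 tissues gave 2841 genes that differed between fat and the mean of liver and muscle, 408 higher than in both tissues and 267 lower. Scaling by total counts gave 7086, 3024 and 93. Of the 408 genes all 408 were still higher, and of the 267 genes 92 were still lower. Total counts moved the median gene from -0.07 to 0.89 on the log2 scale, so the higher genes could hardly lose their calls. Liver and muscle as a single level gave 0 genes with edgeR, and, as alternatives chosen after seeing the data, 1777 with DESeq2 and 0 with limma-voom. A log2 fold of at least 2 left 215 higher and 124 lower genes. Leaving out 1 library gave 937 to 3199, 121 to 583 and 81 to 277 genes in that order, with 1 residual degree of freedom and the lone library of a tissue taken to vary like the others. Without the replicate block, the breed term that pairs the libraries, the counts were 2561, 345 and 234. RLE factors, DESeq2, limma-voom and no filter kept all 3 counts within 1.5 times. Of 91 named genes 87 passed and 4 did not, while 20.6% of all tested genes passed. Many of the 91 were chosen because they passed, so this count was largely set by the choice. Among the 87, 8 lost the call with total counts, 4 without the breed term, 13 without Berkshire fat, 24 without Korean native fat, 87 with liver and muscle as a single level and 0 with RLE factors, DESeq2 or limma-voom, and 0 of them reversed under these alternatives. Levels near those of 3 counts in a library were not resolved at this depth.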
